A study of Mus musculus with 8 samples.

Results

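The 10 genes described here encode ligands, inhibitors and receptors of the interleukin-1 (IL-1) family. They were chosen by gene symbol and not by a filter on measured values, but with earlier results of these data known. The genes are Il1a, Il1b, Il18, Il33, Il1rn, Il18bp, Il1r1, Il1rap, Il1rl1 and Il1r2, and all 10 were found among the 55359 genes of the deposited table. All 10 were also among the 16309 genes that reached a mean of 10 normalized counts and were tested. Total RNA was sequenced from bone marrow-derived macrophages (BMDMs) of wildtype C57BL/6 mice of both sexes, differentiated with 20 ng/mL M-CSF and 20 ng/mL GM-CSF and isolated with CD45 beads. Naïve Mϕ received no apoptotic cells and were left unstimulated (Ctrl) or were stimulated over 6 h with LPS at 100 ng/mL and IFNγ at 100 U/mL (LPS). Efferocytic Mϕ had before been given apoptotic NIH-3T3 CA cells, 5 per Mϕ, for 16 h in the presence of 10 nM of the dimerizer that triggers caspase-driven death of this mouse fibroblast line, and were then left unstimulated (Eff) or stimulated in the same way (LPSEff). Each group had 2 samples, and neither their mice nor a pooling of mice is given in the sources used here, so the p-values measure the spread between these samples, which may be technical. The apoptotic cells were of the same species as the Mϕ, and reads of both cannot be told apart. In addition, a change of the RNA per cell cannot be told apart from a change in the number of cells that express a gene. The sources used here name no dimerizer for the naïve Mϕ of this experiment. An effect of the dimerizer can thus not be told apart from that of the apoptotic cells in any comparison of efferocytic with naïve Mϕ.

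IL-1α and IL-1β signal through the receptor IL1R1, which needs the accessory subunit IL1RAP to recruit MyD88 and activate NF-κB. IL-1Ra, encoded by Il1rn, occupies IL1R1 without signalling, and IL1R2 is a decoy that binds IL-1 but lacks the intracellular signalling domain. IL-33 signals through ST2, encoded by Il1rl1, again together with IL1RAP, whereas IL-18 is neutralized by the soluble IL-18 binding protein. In Mϕ, IL-1β and IL-18 are made as precursors that are cut by caspase-1 in inflammasomes.

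Il1a, Il1b and Il1rn lie on chromosome 2, and the 250 bases upstream of their annotated start sites are shown because these genes reached the highest levels of the family after stimulation. The sequences are from GRCm39, the assembly also called mm39, and read 5′ to 3′ on the strand of the gene up to the base before the start. They cover chr2:129152099-129152348 on the minus strand for Il1a, chr2:129213060-129213309 on the minus strand for Il1b and chr2:24226615-24226864 on the plus strand for Il1rn. Capitals mark a TATA box, searched as the letters TATAAA on both strands.
Il1a: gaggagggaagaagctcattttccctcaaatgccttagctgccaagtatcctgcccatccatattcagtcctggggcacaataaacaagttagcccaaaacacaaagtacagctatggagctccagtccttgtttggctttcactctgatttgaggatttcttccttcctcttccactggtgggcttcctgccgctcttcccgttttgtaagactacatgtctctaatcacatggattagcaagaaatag
Il1b: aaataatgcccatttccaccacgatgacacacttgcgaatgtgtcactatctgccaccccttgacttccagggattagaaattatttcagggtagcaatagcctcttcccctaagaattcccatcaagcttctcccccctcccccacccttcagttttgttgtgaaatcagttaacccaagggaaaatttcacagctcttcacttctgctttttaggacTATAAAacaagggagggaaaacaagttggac
Il1rn: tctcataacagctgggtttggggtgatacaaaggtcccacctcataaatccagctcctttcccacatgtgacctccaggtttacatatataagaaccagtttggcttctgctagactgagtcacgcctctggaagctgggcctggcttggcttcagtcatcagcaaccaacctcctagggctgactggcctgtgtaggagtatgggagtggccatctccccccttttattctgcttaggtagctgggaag
The capitals in Il1b lie 31 to 26 bases upstream of the start. TATAAA was found in 11.9% of the 21627 promoters of this length, and among the 10 genes in Il1b and Il33 (173 to 168 bases upstream). The NF-κB consensus was present in 7.61% of all promoters and in Il1r1 alone among the 10 genes, 232 to 223 bases upstream on the minus strand. The letters TTCNNNGAA of the GAS element (7.73% of all promoters) and GAGGAAGT of a PU.1 site (2.09%), and the interferon-stimulated response element (3.32%), were not in any of these 10 windows.

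The recovered read totals ranged from 3481288 in the first Ctrl sample to 12020918 in the second. The macrophage identity of the samples was checked with 10 markers (Adgre1, Csf1r, Cd68, Itgam, Ptprc, Lyz2, Fcgr1, Cd14, Mertk and Aif1), which were all detected in all 8 samples and summed to between 106516 and 162874 normalized counts. Lyz2 alone gave between 54327 and 103975 of these counts. A list of 20 fibroblast markers was followed because the apoptotic cells were fibroblasts. Of its 17 tested members, 9 were called higher in Eff than in Ctrl and 9 were called higher in LPSEff than in LPS. Of all tested genes, 0.251% and 0.773% were called in these contrasts in either direction. The median difference over the 17 genes was 4.18 and 4.41 on the log2 scale. Not all members went this way, as Postn was too low to be tested and Pdgfrb had lower normalized counts in LPSEff (82.3 and 157) than in LPS (246 and 245). Without Fn1, which Mϕ also express, the list summed to 204 and 436 (Ctrl), 989 and 1084 (LPS), 2446 and 5069 (Eff) and 7142 and 6651 (LPSEff) normalized counts. In LPS vs Ctrl, where no sample had been given apoptotic cells, 3 of the 17 were called higher and 0 lower. Of all tested genes, 12.4% were called higher there. Pdgfrb rose from 15.2 and 11.6 in Ctrl to 246 and 245 in LPS, and Fbn1 from 15.2 and 8.10 to 141 and 146. The sum is thus not specific to the apoptotic cells. A list of 10 dendritic cell markers, led by Fscn1 and Ccr7, was also followed. It summed to 4823 and 6107 (Ctrl), 25963 and 43130 (LPS), 2731 and 3598 (Eff) and 17651 and 16578 (LPSEff) normalized counts. Over its 7 tested genes the median log2 difference with efferocytosis was -0.72 in unstimulated and -0.81 in stimulated Mϕ. None was called in either comparison. With LPS/IFNγ the median was 1.53 in naïve and 1.01 in efferocytic Mϕ. The part of such cells was not tested.

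LPS/IFNγ raised both IL-1 agonists strongly in naïve and in efferocytic Mϕ. Il1b, the gene of the cytokine released after inflammasome activation, had normalized counts of 109 and 74.0 (Ctrl), 49516 and 30115 (LPS), 129.7 and 107 (Eff) and 37496 and 35413 (LPSEff). The stimulated samples lay far above the unstimulated ones without overlap, whereas the efferocytic samples lay within or next to the range of the naïve ones. The mean was 436-fold higher in LPS than in Ctrl and 308-fold higher in LPSEff than in Eff. In the limma fit, the difference of log2(normalized count + 1) was 8.73 ± 0.28 (SE, adjusted p = 3.44e-06) in naïve Mϕ and 8.26 ± 0.28 (adjusted p = 3.62e-06) in efferocytic Mϕ.

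Il1a, which encodes IL-1α, an agonist active also without processing, had normalized counts of 239.9 and 106 (Ctrl), 44202 and 22256 (LPS), 188 and 140.4 (Eff) and 35151 and 29612 (LPSEff). The LPS samples differed from each other more than the LPSEff samples did and enclosed them. The mean was 192-fold higher in LPS than in Ctrl and 197-fold higher in LPSEff than in Eff. The log2 difference was 7.61 ± 0.43 (SE, limma adjusted p = 3.30e-05) for LPS vs Ctrl and 7.63 ± 0.43 (adjusted p = 2.74e-05) for LPSEff vs Eff. Between efferocytic and naïve Mϕ, both agonists stayed within the spread of the samples. For Il1a the log2 difference was 0.02 ± 0.43 without stimulation and 0.04 ± 0.43 with it, values whose sign turned with edgeR and DESeq2. For Il1b these differences were 0.39 ± 0.28 and -0.08 ± 0.28 (adjusted p = 0.999 and 0.968). By RT-qPCR of more samples, the study reported that efferocytosis lowered the IL-1β mRNA induced by LPS/IFNγ. The values here, with 2 samples a group, do not exclude such a difference.

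**Figure D1:**
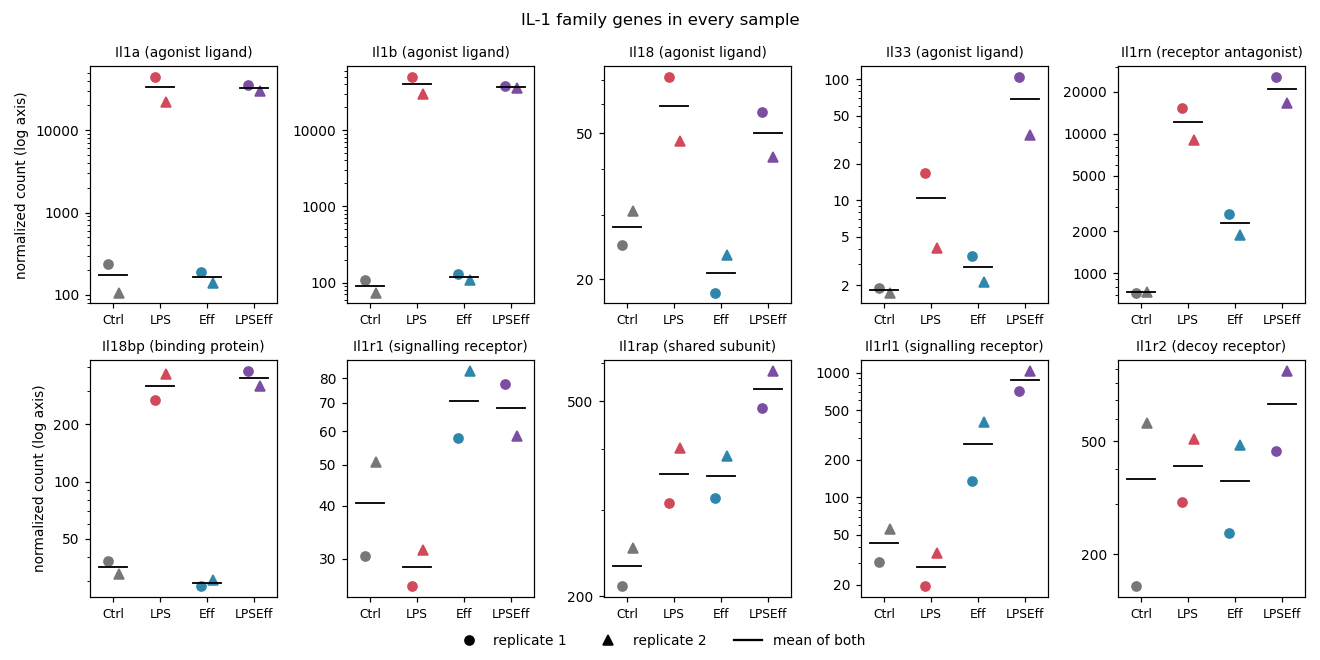
Normalized counts (log axis, with its own range in each panel) of the 10 IL-1 family genes in the 2 samples of Ctrl, LPS, Eff and LPSEff; symbols mark the replicate and lines the mean. Il1a, Il1b and Il18bp separate by stimulation, Il1rl1 separates by efferocytosis, and Il1rn separates by both, from 724 and 729 in Ctrl to 25499 and 16611 in LPSEff.

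The other agonists, Il18 and Il33, were low throughout. Il18 had normalized counts of 24.8 and 30.7 (Ctrl), 71.1 and 47.7 (LPS), 18.4 and 23.3 (Eff) and 57.0 and 43.1 (LPSEff). All stimulated samples lay above all unstimulated ones. The log2 difference was 1.05 ± 0.35 in LPS vs Ctrl (SE, limma adjusted p = 0.0648) and 1.22 ± 0.35 in LPSEff vs Eff (adjusted p = 0.0442). The latter call was lost under several other settings, for instance with DESeq2 (adjusted p = 0.0608), and when either sample of Ctrl, Eff or LPSEff was left out (0.0618 to 0.221).

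Il33, the gene of the nuclear alarmin IL-33, was close to the detection limit in 3 of the 4 groups. It had 1 and 3 reads (Ctrl), 13 and 4 reads (LPS), 4 and 3 reads (Eff) and 131 and 27 reads (LPSEff). In normalized counts these were 1.90 and 1.73 (Ctrl), 16.8 and 4.06 (LPS), 3.51 and 2.12 (Eff) and 104 and 34.3 (LPSEff). Both LPSEff samples lay above all other samples but differed widely from each other. Fibroblast markers were called higher in the efferocytosis contrasts as well, and their part in the Il33 values was not tested. Pooled reads divided by summed size factors were 28.2 times as high in LPSEff as in Eff (95% counting interval 13.3 to 71.2). They were 7.97 times as high in LPSEff as in LPS (4.82 to 14.0). The size factors are those of the deposited normalization, and the intervals cover counting error only. For LPS vs Ctrl this ratio was 5.45 (1.78 to 22.3). In limma Il33 was called in LPSEff vs Eff (log2 difference 4.02 ± 0.80, adjusted p = 0.0101), which did not hold without the second Eff sample (0.0565) or the first LPSEff sample (0.107). It was not called in LPSEff vs LPS (2.68 ± 0.80, adjusted p = 0.248) or LPS vs Ctrl (adjusted p = 0.16).

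Of the natural inhibitors, Il1rn rose with stimulation and was higher in efferocytic than in naïve Mϕ at either state of stimulation. Its normalized counts were 724 and 729 (Ctrl), 15323 and 9014 (LPS), 2664 and 1879 (Eff) and 25499 and 16611 (LPSEff). No sample of any group overlapped with another group, and the order of the groups was Ctrl, Eff, LPS, LPSEff. LPS/IFNγ raised Il1rn by 4.01 ± 0.32 on the log2 scale in naïve Mϕ (SE, limma adjusted p = 0.000131) and by 3.20 ± 0.32 in efferocytic Mϕ (adjusted p = 0.000372). For efferocytosis, the mean was 3.13-fold higher in Eff than in Ctrl and 1.73-fold higher in LPSEff than in LPS. Neither difference passed on its own in limma (1.62 ± 0.32, adjusted p = 0.141, and 0.81 ± 0.32, adjusted p = 0.427), while DESeq2 called the former (adjusted p = 0.000475). The average efferocytosis effect, the mean of Eff minus Ctrl and LPSEff minus LPS, passed at 1.22 ± 0.23 (adjusted p = 0.0383). This call was lost with edgeR (adjusted p = 0.0675), with quantile normalization (0.0501) and with equal totals (0.0622), and in 7 of the 8 fits without 1 sample, the first LPS sample being the exception (0.0697 to 0.145 in the other fits).

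Il18bp, the soluble inhibitor of IL-18, had normalized counts of 38.1 and 32.4 (Ctrl), 269 and 369 (LPS), 28.0 and 30.3 (Eff) and 383 and 317 (LPSEff). The stimulated samples stood apart from the unstimulated ones, and the naïve and efferocytic samples overlapped after stimulation. Without stimulation, both Eff samples lay below both Ctrl samples. LPS/IFNγ raised Il18bp by 3.13 ± 0.25 in naïve Mϕ and by 3.53 ± 0.25 in efferocytic Mϕ on the log2 scale (SE, limma adjusted p = 0.000144 and 7.47e-05). The differences with efferocytosis were -0.26 ± 0.25 and 0.15 ± 0.25 (adjusted p = 0.999 and 0.928).

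The balance between antagonist and agonist was followed within each sample as the ratio of normalized counts, which does not depend on the scaling of samples and was not tested. Il1rn to Il1b was 6.67 and 9.85 (Ctrl), 20.5 and 17.5 (Eff), 0.309 and 0.299 (LPS) and 0.680 and 0.469 (LPSEff). Stimulation thus moved the ratio from above to below 1 in all samples, and the efferocytic samples had the higher ratio in either state, without overlap. Il18bp to Il18 was 1.54 and 1.06 (Ctrl), 1.52 and 1.30 (Eff), 3.78 and 7.72 (LPS) and 6.72 and 7.35 (LPSEff), so that it followed stimulation and overlapped between naïve and efferocytic Mϕ. Il1a to Il1b was 1.31 to 2.21 in the 4 unstimulated samples and 0.739 to 0.937 in the 4 stimulated ones. The ratios are not corrected for exon length, so a value of 1 does not mark equal levels of both genes. Per kb of exon, the second Eff sample had less Il1a (40.3) than Il1b (41.2).

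**Figure D2:**
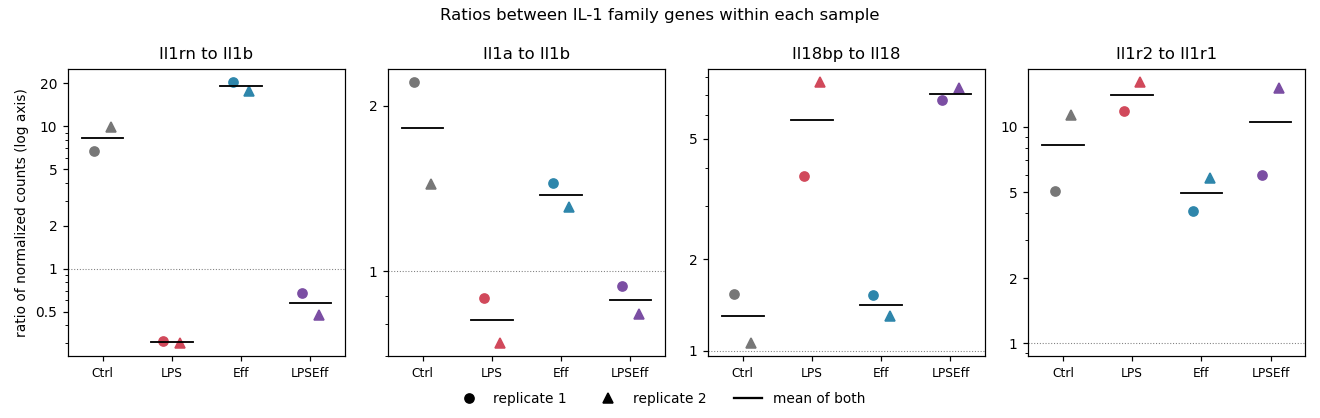
Ratios of normalized counts within each sample (log axis) for Il1rn to Il1b, Il1a to Il1b, Il18bp to Il18 and Il1r2 to Il1r1 in the 2 samples of each group; symbols mark the replicate, solid lines the mean and the dotted line a ratio of 1. Il1rn to Il1b is highest in Eff (20.5 and 17.5) and lowest in LPS (0.309 and 0.299).

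Among the receptors, Il1rl1, which encodes the IL-33 receptor ST2, had the largest difference of the 10 genes between efferocytic and naïve Mϕ in both comparisons. Its normalized counts were 30.5 and 56.1 (Ctrl), 19.4 and 35.5 (LPS), 136 and 400.1 (Eff) and 708 and 1034 (LPSEff). All efferocytic samples lay above all naïve samples, and both LPSEff samples lay above both Eff samples. The mean was 6.19-fold higher in Eff than in Ctrl and 31.7-fold higher in LPSEff than in LPS. The log2 difference of 4.97 ± 0.54 in LPSEff vs LPS passed in limma (SE, adjusted p = 0.0140), but not without the first LPSEff sample (0.127) or without the second (0.142), where the remaining sample was taken to vary like the other groups. In Eff vs Ctrl the difference of 2.47 ± 0.54 did not pass in limma (adjusted p = 0.204), whereas DESeq2 called it (adjusted p = 3.80e-05). The average efferocytosis effect was 3.72 ± 0.38 (adjusted p = 0.00458).

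The LPS/IFNγ effect on Il1rl1 was -0.63 ± 0.54 on the log2 scale in naïve Mϕ (SE, limma adjusted p = 0.457) and 1.87 ± 0.54 in efferocytic Mϕ (adjusted p = 0.0446). The difference between both effects, the interaction of 2.50 ± 0.77, had an unadjusted p of 0.0110 and did not pass after adjustment (1.00). The call in LPSEff vs Eff was lost with equal totals (adjusted p = 0.0624) and without either Ctrl sample, the first Eff sample or either LPSEff sample (0.0551 to 0.227). Fibroblast markers were called higher in the same efferocytosis contrasts, and their part in the result was not tested. Mast cells also express ST2. Of 10 mast cell and basophil markers, 5 were tested and none was called with efferocytosis. Their median log2 difference was 0.18 for Eff vs Ctrl and -0.11 for LPSEff vs LPS, where 0.251% and 0.773% of all tested genes were called. The list summed to between 722 and 1019 normalized counts, most of it from Kit and Hdc, which moved in opposite directions with stimulation. Kit fell from 983 and 863 in Ctrl to 237 and 269 in LPS, whereas Hdc rose from 9.52 and 20.8 to 635 and 514. Gata2 was higher in LPSEff (57.8 and 58.4) than in LPS (28.5 and 49.8) and overlapped between Ctrl and Eff. Cpa3 had 9.05 and 109.7 in LPS and 7.92 and 59.6 in LPSEff. Mcpt4 was at 0 in both samples of Ctrl, LPS and LPSEff, and Mcpt8 and Fcer1a were at 0 in both Eff samples, whereas the tryptase gene Tpsb2 had 0 and 2.89 (Ctrl), 5.17 and 18.3 (LPS), 3.51 and 17.6 (Eff) and 8.71 and 25.4 (LPSEff) normalized counts. The part of such cells in the result was not tested.

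**Figure D3:**
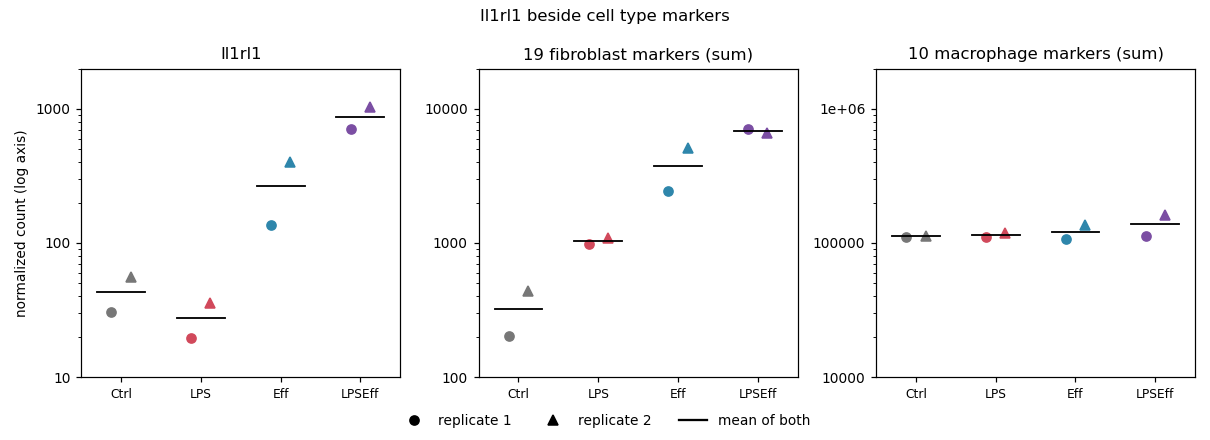
Normalized counts (log axes) of Il1rl1 and the summed normalized counts of 19 fibroblast markers (without Fn1) and 10 macrophage markers in the 2 samples of each group; symbols mark the replicate and lines the mean. Il1rl1 and the fibroblast sum are both higher in Eff and LPSEff than in the matching naïve group, while the macrophage sum stays between 106516 and 162874. The fibroblast sum is also higher in LPS than in Ctrl.

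Il1r1, the signalling receptor of IL-1, was low, with normalized counts of 30.5 and 50.9 (Ctrl), 25.9 and 31.5 (LPS), 57.8 and 83.3 (Eff) and 77.6 and 58.4 (LPSEff). All 4 efferocytic samples lay above all 4 naïve samples. The log2 difference between them was 0.80 ± 0.36 without stimulation and 1.21 ± 0.36 after it (SE, limma adjusted p = 0.839 and 0.248), and the average of 1.01 ± 0.26 did not pass (adjusted p = 0.12). Here, too, fibroblast markers were called higher in the same contrasts, and their part was not tested. With LPS/IFNγ the Il1r1 differences were -0.45 ± 0.36 in naïve Mϕ and -0.04 ± 0.36 in efferocytic Mϕ (limma adjusted p = 0.425 and 0.953).

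Il1rap, the subunit shared by the IL-1 and IL-33 receptors, had normalized counts of 209 and 251 (Ctrl), 310.4 and 401 (LPS), 318 and 387 (Eff) and 485 and 577 (LPSEff). Ctrl was the lowest group, LPSEff the highest, and LPS and Eff overlapped between them. With the deposited normalization the 4 pairwise differences lay between 0.58 and 0.62 on the log2 scale (SE 0.22 each), and none passed in limma (adjusted p = 0.0787 in LPS vs Ctrl, 0.101 in LPSEff vs Eff, 0.402 in LPSEff vs LPS and 0.64 in Eff vs Ctrl). With edgeR both LPS/IFNγ differences passed (adjusted p = 0.0402 and 0.0458), whereas with equal totals they were 0.22 and 0.14 (limma adjusted p = 0.384 and 0.582). All 4 differences passed with the replicate number as a block in limma, but no source used here says what the number stands for.

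The decoy receptor Il1r2 varied more between replicates than between groups. It had normalized counts of 154 and 581 (Ctrl), 305 and 509.8 (LPS), 237 and 486 (Eff) and 463 and 883 (LPSEff). Each of the 4 comparisons overlapped, with log2 differences from 0.18 to 0.91 and a SE of 0.63 (limma adjusted p between 0.374 and 0.999). In LPS vs Ctrl the value of 0.40 vanished to -0.00 when samples were rescaled to equal totals. The ratio of decoy to signalling receptor, Il1r2 to Il1r1, was 5.06 and 11.4 (Ctrl), 11.8 and 16.2 (LPS), 4.11 and 5.83 (Eff) and 5.97 and 15.1 (LPSEff), and the only groups without overlap across a contrast were Ctrl against LPS and Eff against LPSEff.

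Counted over the 10 genes, LPS vs Ctrl called 4 as higher (Il1a, Il1b, Il1rn and Il18bp) and none as lower, where 24.0% of all tested genes were called (12.4% as higher). LPSEff vs Eff called 7 as higher, the same 4 genes with Il18, Il33 and Il1rl1, against 19.7% of all tested genes (10.7% as higher). Without the first LPSEff sample the count in LPSEff vs Eff was 4. The median log2 difference of the 10 genes was 1.40 in LPS vs Ctrl and 2.54 in LPSEff vs Eff, beside -0.01 and 0.01 over all tested genes. No gene of the family passed for the difference between both LPS/IFNγ effects, as was the case for all 16309 genes (0 called, 311 at an unadjusted p under 0.05; edgeR and DESeq2 also called 0). Rescaling the samples to equal totals shifted the median gene by -0.40 in LPS vs Ctrl and by -0.44 in LPSEff vs Eff, and left 1420 of 5735 and 1216 of 5578 calls as higher, against 2015 of 3910 and 1753 of 3213 with the deposited normalization.

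For efferocytosis, Eff vs Ctrl called 0 of the 10 genes in limma (3 had an unadjusted p under 0.05), where 0.251% of all tested genes were called. DESeq2 called 2, Il1rn and Il1rl1, and edgeR called 0. LPSEff vs LPS called Il1rl1 alone, where 0.773% of all genes were called, and 0 genes when either LPSEff sample was left out. The average efferocytosis effect called Il1rn and Il1rl1, where 1.92% of all genes were called. Without a test, 5 of the 10 genes were higher in both Eff samples than in both Ctrl samples (16.3% of all genes) and 2, Il18 and Il18bp, were lower (17.8%). In LPSEff vs LPS, 5 were higher (19.3%) and none was lower (17.0%), namely Il1rn, Il33, Il1r1, Il1rap and Il1rl1, which were also the 5 genes above Ctrl in Eff, where Il33 rests on 4 reads or fewer per sample. In the stimulation contrasts, 7 genes were higher without overlap in LPS vs Ctrl (28.4% of all genes) and 8 in LPSEff vs Eff (29.5%).

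**Figure D4:**
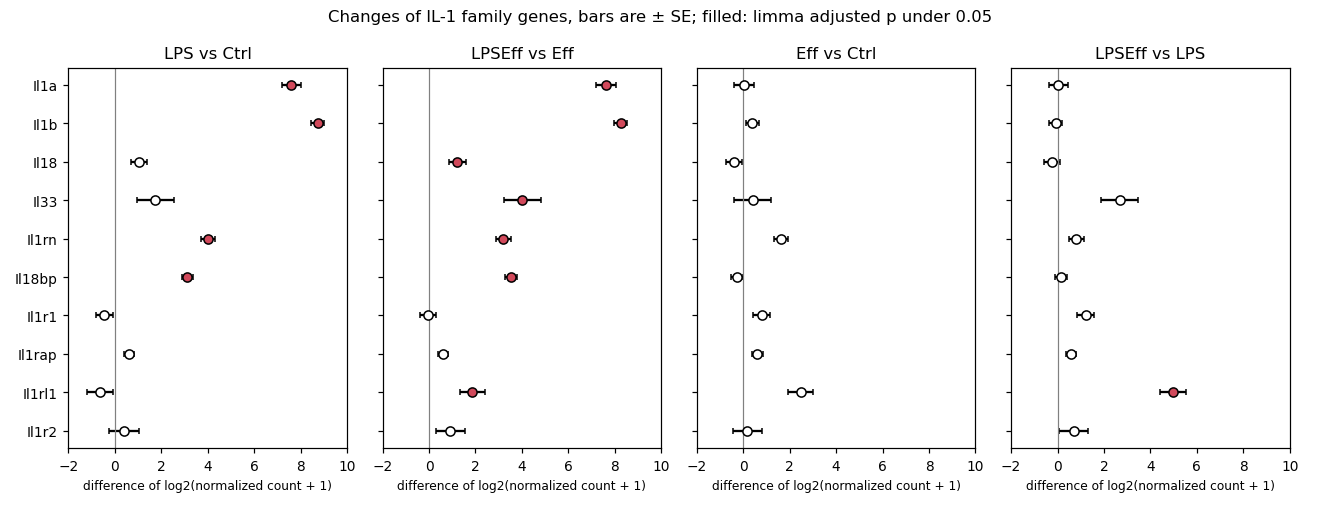
Differences of log2(normalized count + 1) with their SE for the 10 genes in 4 comparisons of 2 samples against 2, on 1 common axis; filled points passed at an adjusted p under 0.05 in limma. Il1a and Il1b lie between 7.61 and 8.73 in the stimulation contrasts and close to 0 in the efferocytosis contrasts, where Il1rl1 lies at 2.47 and 4.97.

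Levels were compared between genes as normalized counts per kb of annotated exon. In Ctrl the decoy receptor Il1r2 (146 ± 120, SD, n = 2) and the antagonist Il1rn (131 ± 0.723) led the family, their samples overlapping, followed by Il1a (49.7 ± 27.1) and Il1b (35.1 ± 9.38), which overlapped with each other. In Eff, Il1rn stood alone at the top at 410.3 ± 100.2 per kb, above Il1r2 at 143 ± 69.6. After stimulation the agonists led, with Il1b at 15308 ± 5274 and Il1a at 9532 ± 4452 per kb in LPS, which overlapped, and 14016 ± 566 and 9289 ± 1123 in LPSEff, which did not. Il1rn followed with 2198 ± 806 per kb in LPS and 3803 ± 1135 in LPSEff. Il33 was the lowest gene per kb in Ctrl (0.294), LPS (1.69) and Eff (0.455). Il1rl1 moved from rank 8 and 9 of the 10 genes in Ctrl and LPS to rank 5 in Eff (38.9 ± 27.1 per kb) and LPSEff (126 ± 33.5 per kb), overlapping in Eff with Il1b above it and Il1rap below it.

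The 10 genes lie on 6 chromosomes (GRCm39 coordinates of the GENCODE gene spans). Il1a (chromosome 2, 129140291 to 129152098) and Il1b (129206490 to 129213059) are neighbours on the minus strand, and Il1rn lies on the plus strand of the same chromosome (24226865 to 24241506), beside Il36a (24105430 to 24115714) and Il36g (24072000 to 24083585). The receptor genes Il1r2 (chromosome 1, 40113239 to 40164391), Il1r1 (40264174 to 40356417) and Il1rl1 (40468730 to 40504575) form a cluster on the plus strand that also holds Il1rl2, Il18r1 and Il18rap. Il18 lies on chromosome 9 (50466081 to 50493633), Il18bp on chromosome 7 (101638490 to 101668206), Il33 on chromosome 19 (29902483 to 29938933) and Il1rap on chromosome 16 (26400350 to 26548880).

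Il1rl2, the receptor of the IL-36 cytokines, fell with LPS/IFNγ by 0.98 ± 0.20 on the log2 scale in naïve Mϕ (SE, limma adjusted p = 0.0103) and by 1.29 ± 0.20 in efferocytic Mϕ (adjusted p = 0.00351), from 495 and 559.8 normalized counts in Ctrl to 275 and 258 in LPS, and from 416 and 557 in Eff to 200.3 and 192 in LPSEff. The subunits of the IL-18 receptor, Il18r1 (2.59 to 52.0 normalized counts) and Il18rap (103 to 269), were not called in any contrast. Il18r1 starts 137 bases downstream of the end of Il1rl1, and its log2 difference in LPSEff vs LPS was -0.22 ± 0.86, beside 4.97 for Il1rl1.

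Of the 6 tested genes among 11 other family members, 2 were called higher and 2 lower in LPS vs Ctrl, and 2 higher and 1 lower in LPSEff vs Eff, where 24.0% (12.4% as higher) and 19.7% (10.7% as higher) of all tested genes were called. The agonist Il36g rose from 36.2 and 56.7 normalized counts in Ctrl to 572 and 551 in LPS, and from 68.4 and 129.9 in Eff to 916 and 947 in LPSEff (log2 differences 3.60 ± 0.33 and 3.29 ± 0.33, SE, limma adjusted p = 0.000251 and 0.000371). Il36a was at 1 read in all in Ctrl and 3 reads in Eff, against 264 reads in LPS and 744 in LPSEff. Divided by the summed size factors, the ratio was 339 (95% counting interval 60.2 to 13422) for LPS vs Ctrl. For LPSEff vs Eff it was 309 (105 to 1503). Sigirr, an inhibitory receptor of the family, fell by 1.28 ± 0.35 in LPS vs Ctrl (adjusted p = 0.0319), while the value in LPSEff vs Eff was -0.36 ± 0.35 (adjusted p = 0.535). None of the 6 was called with efferocytosis.

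Downstream of the receptors, all 20 listed signalling genes were tested. In LPS vs Ctrl 8 were called higher and 2 lower, with a median of 0.33 over the list beside -0.01 over all tested genes, and in LPSEff vs Eff 9 and 3 were called, with a median of 0.19 beside 0.01. Of all tested genes, 24.0% (12.4% as higher) were called in the former and 19.7% (10.7% as higher) in the latter. The largest rises in both were Peli1, an E3 ligase of the pathway (2.99 ± 0.20 and 2.63 ± 0.20), and Irak3, which restrains IRAK signalling (2.29 ± 0.44 and 2.39 ± 0.44). The largest falls were Peli2 (-1.14 ± 0.23 and -1.06 ± 0.23) and Tab1 (-0.72 ± 0.22 and -0.87 ± 0.22). Ikbkg, which encodes the IKK subunit NEMO, was the only gene of the list called for the average efferocytosis effect (0.87 ± 0.16, limma adjusted p = 0.0339), with normalized counts of 470.3 and 647 (Ctrl), 848 and 1126 (Eff), 967 and 1012 (LPS) and 1989 and 1745 (LPSEff). For this effect, 1.92% of all tested genes were called.

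Of 16 genes for processing and release, all tested, 7 were called higher and 5 lower in LPS vs Ctrl (median 0.62), and 7 and 3 in LPSEff vs Eff (median 0.56), beside 24.0% and 19.7% of all tested genes (12.4% and 10.7% as higher). Mefv, which encodes the inflammasome sensor pyrin, rose by 4.25 ± 0.55 and 3.82 ± 0.55, and Casp4, which encodes the LPS-sensing caspase-11, by 3.08 ± 0.22 and 3.86 ± 0.22. The largest falls were Nlrp1b (-1.75 ± 0.49) and Gsdme (-1.66 ± 0.40) in LPS vs Ctrl and Gsdme (-1.37 ± 0.40) and the adaptor Pycard (-1.31 ± 0.20) in LPSEff vs Eff. None of the 16 genes was called in Eff vs Ctrl, LPSEff vs LPS or for the average efferocytosis effect. Of all tested genes, 0.251%, 0.773% and 1.92% were called there.

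**Figure D5:**
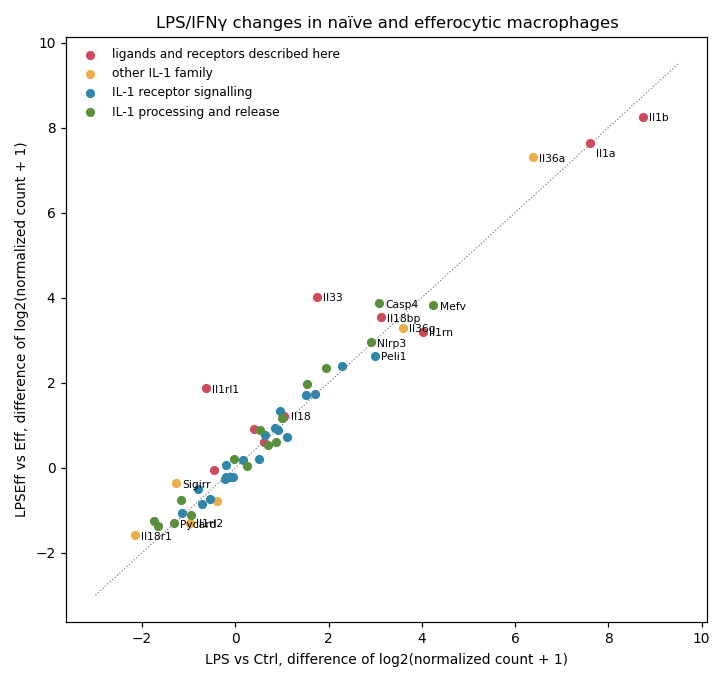
Differences of log2(normalized count + 1) after LPS/IFNγ in naïve Mϕ (x axis, LPS vs Ctrl) and efferocytic Mϕ (y axis, LPSEff vs Eff) for the tested genes of 4 lists; each point is a gene, and the dotted line marks equal values. Most genes lie near the line, with Il33 (1.75 and 4.02) and Il1rl1 (-0.63 and 1.87) farthest above it.

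Several of the 10 genes share their locus with a transcript of the other strand. Where exons of both overlap, the counting told them apart by strand only. The long noncoding RNA Gm14023 (chromosome 2, 129139285 to 129217678, plus strand) spans both Il1a and Il1b, and 477 of its 5412 exonic bases lie opposite exons of Il1a and 0 opposite exons of Il1b. It had normalized counts of 60.9 and 28.9 (Ctrl), 10923 and 5521 (LPS), 57.0 and 43.0 (Eff) and 8470 and 8481 (LPSEff). It followed stimulation as Il1a and Il1b did (log2 differences 7.50 ± 0.40 and 7.39 ± 0.40, SE, limma adjusted p = 3.11e-05 and 2.47e-05) and amounted to 16.0% to 18.0% of the sum of Il1a and Il1b in the unstimulated samples and 10.5% to 13.0% in the stimulated ones. Il1bos, a second transcript opposite Il1b, was also called higher in both (3.70 ± 0.70 and 4.23 ± 0.70). In contrast, Numa1, opposite Il18bp with 446 shared exonic bases, was not called in any contrast (-0.30 to -0.07). Within 50 kb of the 10 genes, 59 other genes are annotated, of which 25 were tested. None of these was called in Eff vs Ctrl or LPSEff vs LPS, where 0.251% and 0.773% of all tested genes were called. In LPS vs Ctrl 4 of the 25 were called higher and 2 lower, and in LPSEff vs Eff 3 and 3. These shares were close to those of all tested genes, of which 24.0% and 19.7% were called. Besides Gm14023, Il1bos and Il1rl2, the genes called were Map4k4 beside Il1r2 (0.90 and 1.19 in naïve and efferocytic Mϕ), Ckap2l beside Il1a (-0.98 and -1.21), Bco2 beside Il18 in naïve Mϕ (2.52) and Gm14024 beside Il1a in efferocytic Mϕ (-1.44).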

How the data were processed

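Total RNA of 8 CD45-isolated BMDM samples was depleted of rRNA and sequenced. Per the labels and the study's methods, the authors trimmed reads with cutadapt, filtered rRNA out (Bowtie2), aligned to the mm39 assembly (STAR) and ran htseq-count at its default settings, which assign reads by strand. Tool versions and the annotation release are not given in the sources used here. The deposited signal is a count per gene divided by 1 size factor per sample (DESeq2 normalized counts). Every value (100%, tolerance 0.001) was a whole multiple of its sample's smallest step, so reads were recovered. A floor of 3 reads and all intervals cover counting error only.

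limma (version 3.58.1, R 4.3.3) was fitted with a trend to log2(normalized count + 1) of 16309 genes with a mean of at least 10, over 4 group means with 4 residual degrees of freedom. P-values were adjusted by Benjamini-Hochberg over all tested genes, and a call means an adjusted p under 0.05. Fold changes on this scale understate the change of low genes. edgeR (version 4.0.16, TMM) called 3991, 3509, 14 and 126 genes and DESeq2 (version 1.42.0) 3954, 3519, 204 and 368 genes for LPS vs Ctrl, for LPSEff vs Eff, for Eff vs Ctrl and for LPSEff vs LPS. Other alternatives were pseudocounts of 0.5 and 5, means above 0 or of at least 50, equal totals, quantile normalization, only the groups compared, a replicate block and leaving out each sample.

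The 10 genes and all lists were chosen with earlier results of these data known. Named were all 10 genes, from each pathway list the 2 largest called rises and falls per stimulation contrast and every gene called with efferocytosis, all tested other family members, the 3 genes most correlated with each of the 10, and neighbours within 50 kb. Exon lengths and promoters were taken from GENCODE and GRCm39. Of further marker lists, 1 of 6 tested neutrophil markers was called higher in Eff vs Ctrl, 1 of 7 dendritic cell markers lower for the average efferocytosis effect and 0 of 1 lymphocyte marker in any contrast. Among all tested genes, 0.251% were called in Eff vs Ctrl and 1.92% for the average efferocytosis effect.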

Additional observations from a re-analysis of the deposited data

How the results depend on the processing

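With 2 samples a group, small changes could not be called, and genes with few reads (Il33, Il18) are limited by depth. Of the calls, those of Il1a, Il1b, Il1rn and Il18bp in both stimulation contrasts held in every alternative run. The number of the 10 genes called was within 1.5 times the reported count under every alternative other than the following and the replicate block below. In Eff vs Ctrl (0 reported) DESeq2 called 2. For the average efferocytosis effect (2 reported) equal totals and edgeR each called 1. The fits without 1 sample called 4 to 7 in LPSEff vs Eff, 0 to 1 in LPSEff vs LPS and 1 to 2 for the average efferocytosis effect. The cause was not tested, apart from the smaller number of samples in the latter.

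Groups share the replicate numbers 1 and 2, and deviations of same-numbered samples from their group means correlated across 16309 genes with r between 0.404 and 0.595. No source used here says what a number stands for. With the replicate block in limma 7 of the 10 genes were called in LPS vs Ctrl, 3 in Eff vs Ctrl, 5 in LPSEff vs LPS and 5 for the average efferocytosis effect, Il1rap being called in all 4 pairwise comparisons (adjusted p between 0.00496 and 0.0491). With edgeR and the replicate block, an alternative chosen after seeing the data, these counts were 7, 3, 5 and 4. Il1r2, Il1rap and Il1rl1 were higher in the sample numbered 2 in 4 of 4 groups, and Il1a, Il1b and Il33 in the sample numbered 1.

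Values near 0 changed sign. With equal totals Il1r2 in LPS vs Ctrl was -0.0035 and the Il1a interaction -0.030. With edgeR and the replicate block Il1r1 in LPSEff vs Eff was 0.030. With quantile normalization Il33 in Eff vs Ctrl was -0.12, and Il1a was -0.12 in LPSEff vs LPS, -0.050 for the average efferocytosis effect and -0.14 for the interaction. With edgeR Il1a was -0.058 in Eff vs Ctrl, -0.059 in LPSEff vs LPS, -0.059 for their average and -0.0018 for the interaction, and Il1r2 was -0.055 in Eff vs Ctrl. With DESeq2 Il1a was -0.070 in Eff vs Ctrl, -0.067 in LPSEff vs LPS and -0.068 for their average, and Il1r2 was -0.023 in Eff vs Ctrl.

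Leaving out each sample in turn gave log2 differences on both sides of 0 for further values that were not called. Il1a ranged from -0.56 to 0.60 in Eff vs Ctrl, from -0.45 to 0.54 in LPSEff vs LPS, from -0.26 to 0.32 for the average and from -0.56 to 0.60 for the interaction. Il1b ranged from -0.44 to 0.28 in LPSEff vs LPS and from -0.025 to 0.33 for the average. Il18 ranged from -0.51 to 0.054 in LPSEff vs LPS and from -0.12 to 0.45 for the interaction. Il18bp ranged from -0.080 to 0.37 in LPSEff vs LPS and from -0.17 to 0.057 for the average. Il1r1 ranged from -0.30 to 0.22 in LPSEff vs Eff. Il1r2 ranged from -0.56 to 1.35 in LPS vs Ctrl, from -0.77 to 1.13 in Eff vs Ctrl, from -0.038 to 0.91 for the average and from -0.44 to 1.47 for the interaction. Il1rap ranged from -0.21 to 0.16 for the interaction.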

Other observations

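For each of the 10 genes, the genes with the most similar pattern were found by Pearson's r of log2(normalized count + 1) over the 8 samples, which share their libraries and fall into 4 groups, so that r is high for any gene that follows the groups. Il1a was closest to the antisense transcript Gm14023 (r = 1.00), Il1b (0.998) and Nfat5 (0.998), and 705 of the tested genes reached an r of 0.95. For Il1b these were Gm14023 (0.999), Il1a (0.998) and the glutamate transporter gene Slc1a2 (0.998, from 4.23 to 6.13 normalized counts in unstimulated and 989 to 1742 in stimulated samples), with 754 genes at 0.95. Il18bp followed Gm5970 (0.998), Chrnb2 (0.998) and the interferon-induced GTPase gene Irgm1 (0.998), with 783 genes at 0.95.

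Il1rn, which was higher with LPS/IFNγ and with efferocytosis, had fewer genes of similar pattern, 218 at 0.95. The closest was Tpbg, which encodes the membrane glycoprotein 5T4 (r = 0.999), with 22.8 and 20.8 normalized counts (Ctrl), 317 and 244 (LPS), 67.5 and 51.5 (Eff) and 539 and 383 (LPSEff), followed by Gm42928 (0.996) and the glutaminase gene Gls2 (0.995). As with Il1rn, no Tpbg sample of any group overlapped with another group.

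Il1rl1 had 62 genes at 0.95, and the closest were Pcdhgb6 (0.996), Pcdhgc5 (0.995) and Pcdhgc3 (0.995), protocadherins of the gamma cluster that share exons, so that their reads are uncertain. Pcdhgb6 and Pcdhgc5 had the same normalized counts in Ctrl (76.2 and 94.3) and in LPS (69.8 and 91.4), so they do not count as separate matches. Il33 followed Zdhhc18 (0.987), Ss18l1 (0.983) and Mcoln2 (0.983), and Il18 followed Gm16181 (0.986), Kat5 (0.984) and Tbc1d9b (0.982). Il1r1 followed Cspg4 (0.979), Flnc (0.968) and Trmt10a (0.967), Il1rap followed Uso1 (0.990), Ms4a7 (0.984) and Zfp462 (0.984), and Il1r2 followed Anapc4 (0.977) and the small noncoding RNA genes Gm23402 (0.975) and Gm25873 (0.974).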
